A study of Mus musculus with 9 samples.

Results

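The RNA of colonic tissue from mice treated with berberine was compared with that of mice on a chow diet with AOM/DSS, to ask what still differed from chow in the berberine group. The comparison rests on 6 of the 9 libraries of the series, 3 a side, and on all 14506 of 55401 table entries whose mean was at least 1 FPKM (fragments scaled to gene length and library size) over the 9 libraries. The entries tested hold 98.9% of the counts. All mice carried the wild-type genotype. The chow group is titled ND with AOM and DSS and its treatment is a chow diet, the reference group is titled HFD with AOM and DSS and its treatment is a high-fat diet, and the treatment of the third group is given as berberine alone. AOM is the usual short form of azoxymethane, a carcinogen, and DSS that of dextran sulfate sodium, which inflames the colon, and together they cause colon tumours in mice. The labels state neither the diet of the berberine mice nor whether they received AOM/DSS, so the agent, a diet and the tumour model cannot be told apart in any difference below. Ages, sexes and strain are not in the labels, nor is whether each library is 1 animal, so p-values measure the spread between libraries, which may be technical.

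Berberine is a yellow plant alkaloid used against diarrhoea and studied for its effects on metabolism and on intestinal tumours. In cells under proteotoxic stress, the transcription factor HSF1 binds repeats of a short element in promoters and raises the mRNAs of molecular chaperones. The HSP70 proteins hold unfolded chains, J-domain proteins such as DNAJA1 and DNAJB1 hand clients to them, HSP110 proteins such as HSPH1 exchange their nucleotide, and HSP90 with its co-chaperones matures kinases and receptors. GSK3B is the kinase that marks beta-catenin for destruction, and it also restrains glycogen synthesis. Wnt signalling through beta-catenin is the pathway most often activated in colon tumours.

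Few genes passed the test. By edgeR's quasi-likelihood test with Benjamini-Hochberg adjustment over all 14506 genes, 6 genes rose (0.0414%) and 1 fell (0.00689%) in the berberine libraries at an adjusted p under 0.05. DESeq2 on the same counts called 177 genes higher (1.22%) and 203 lower (1.4%), all 7 of the edgeR calls among them. An unadjusted edgeR p under 0.05 was reached by 727 genes on the higher side (5.01%) and 852 on the lower (5.87%). Every berberine library lay above every chow library in 1266 genes (8.73%) and below every one in 1359 (9.37%). These shares over all genes are the reference for the counts in each list below. The fitted difference was under 1 on the log2 scale in 13681 genes, or 94.3%, and its median size was 0.21. For high-fat diet against the same chow libraries the median size was 0.45, and 4613 genes (31.8%) were called. Of the 6 genes that rose, 5 encode chaperones or are pseudogene copies of a chaperone gene, and the sixth is Gsk3b. Cacna1h was the gene that fell.

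**Figure D1:**
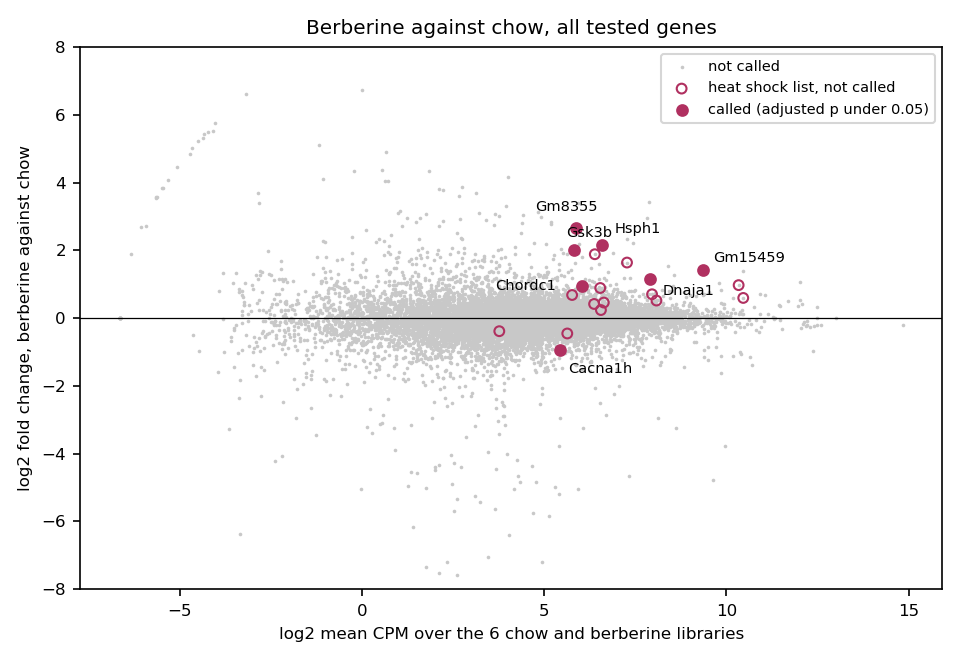
Each point is 1 of the 14506 tested genes, with its mean CPM (counts scaled to a common library size, with TMM scaling) over the 6 chow and berberine libraries on a log2 axis and its log2 fold change, berberine against chow, on the vertical axis. The 7 genes called by edgeR are filled and labelled, other members of the heat shock list are open circles, and 18 genes lie beyond the axis limits of 8. Most points lie near 0, and all but 2 of the 16 heat shock genes, Hspb8 and Cryab, lie above it.

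The promoters of 4 chaperone genes are shown, those of the 3 called genes on the heat shock list and of the inducible HSP70 gene Hspa1b. They are RefSeq sequences on GRCm38.p6, 250 bases before to 50 bases after an annotated start, 5′ to 3′ on the gene's strand, and capitals mark the palindromic heat shock element GAANNTTC, which joins a pair of HSF1 binding units, GAA and TTC. Hspa1b lies on the minus strand at chr17:34959189-34959488, with an element beginning 104 bases before the start. Hsph1 lies on the minus strand at chr5:149636287-149636586, and its element begins 41 bases after this start. Dnaja1 lies on the plus strand at chr4:40722218-40722517, where the element begins 124 bases before the start, and the other two Dnaja1 promoters in the table, from later starts, held no element. Chordc1, on the plus strand at chr9:18292017-18292316, has an element that begins 4 bases before the start and another that begins 6 bases after it.
Hspa1b: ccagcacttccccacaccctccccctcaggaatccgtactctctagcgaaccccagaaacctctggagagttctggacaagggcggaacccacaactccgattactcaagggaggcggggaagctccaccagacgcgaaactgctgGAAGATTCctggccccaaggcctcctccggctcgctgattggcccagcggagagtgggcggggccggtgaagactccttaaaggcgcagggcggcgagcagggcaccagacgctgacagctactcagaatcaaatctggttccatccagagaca
Hsph1: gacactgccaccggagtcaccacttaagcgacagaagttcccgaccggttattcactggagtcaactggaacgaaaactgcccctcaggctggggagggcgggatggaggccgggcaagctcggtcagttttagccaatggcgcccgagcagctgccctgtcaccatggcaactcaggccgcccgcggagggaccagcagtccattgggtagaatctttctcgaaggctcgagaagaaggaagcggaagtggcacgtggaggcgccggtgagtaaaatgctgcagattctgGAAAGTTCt
Dnaja1: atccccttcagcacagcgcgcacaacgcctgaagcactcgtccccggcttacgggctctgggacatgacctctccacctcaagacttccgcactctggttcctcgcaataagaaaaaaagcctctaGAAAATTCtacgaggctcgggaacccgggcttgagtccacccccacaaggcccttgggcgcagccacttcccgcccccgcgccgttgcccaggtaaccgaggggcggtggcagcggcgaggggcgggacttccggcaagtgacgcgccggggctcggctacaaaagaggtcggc
Chordc1: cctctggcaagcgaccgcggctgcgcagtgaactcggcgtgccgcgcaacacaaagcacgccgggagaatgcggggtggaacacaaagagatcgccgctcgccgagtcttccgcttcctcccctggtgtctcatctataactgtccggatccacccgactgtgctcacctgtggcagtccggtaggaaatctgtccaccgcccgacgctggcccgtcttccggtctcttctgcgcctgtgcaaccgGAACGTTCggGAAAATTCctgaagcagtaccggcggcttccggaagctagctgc
At least 1 promoter of 12 of the 16 genes on the heat shock list was in the table, and 10 of these 12 genes held GAANNTTC in one. The 10 are not independent, since Hspd1 and Hspe1 start in opposite directions from 1 stretch and share its element, and the copies Hspa1a and Hspa1b both hold theirs 104 bases before the start. That element was found in 7.86% of all 32851 promoters of this length and in 9.04% of 27025 genes. A longer form with 3 units, GAANNTTCNNGAA on either strand, which overlaps the shorter element, was found in 0.6% of promoters and in 4 of the 12 genes, Hsph1, Chordc1 and the pair Hspd1 and Hspe1, which again share it. Among the 12 genes, Hspb1 and Hspb8 held GAANNTTC and their groups overlapped. Dnajb1 and Hspa4l held none, and every berberine library lay above every chow library for both. The rest of the 12 held the element and had every berberine library above chow. Whether the element goes with the difference was not tested. The Gsk3b promoter in the table held no GAANNTTC. A match describes the letters in this window and is not a measured binding site.

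Gsk3b, the kinase gene named above (ENSMUSG00000022812, chromosome 16, 38089001 to 38246084, GRCm38), had the smallest p. It was at 25.4, 22.6 and 19.5 CPM in chow replicates 1, 2 and 3 and at 90.1, 94.3 and 88.6 CPM in berberine replicates 1, 2 and 3. The groups stood far apart and each was tight. The rise was 4.05-fold, with a log2 fold change of 2.02 ± 0.14 and an adjusted p of 0.00369 (edgeR). The high-fat diet libraries were at 87.02, 76.3 and 97.5 CPM, a range that takes in all 3 berberine libraries and none of the chow libraries. Against chow the high-fat diet value was 1.95 ± 0.14 (edgeR adjusted p 0.000114), and berberine against high-fat diet was 0.07 ± 0.14 (edgeR adjusted p 0.742). Both comparisons with chow use the same 3 chow libraries. In fits that left out each chow or berberine library in turn the call was kept in 6 of 6, with adjusted p from 0.01099 to 0.0389 (edgeR). It was lost with chow replicates 2 and 3 left out together (adjusted p 0.0699, edgeR) and with berberine replicates 1 and 2 left out together (0.113).

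The protein complex that GSK3B serves was looked at through a list written after values had been seen. Of 9 genes looked for, among them the scaffolds Apc and Axin1, the casein kinase gene Csnk1a1 and the beta-catenin gene Ctnnb1, 8 were tested and 1 was called, Gsk3b itself. The median log2 fold change of the 8 was 0.02, from -0.42 to 2.02. Among Wnt feedback genes and targets, none of 19 was called by edgeR, 3 had an unadjusted p under 0.05 on the lower side and DESeq2 called 1 lower. Their median was -0.13, beside -0.0022 over all genes tested. Nkd1, an inhibitor of Wnt signalling that Wnt itself induces, was at 47.5, 33.8 and 45.9 CPM in chow and at 21.1, 22.6 and 14.6 CPM in the berberine libraries. Those ranges did not overlap, and edgeR's adjusted p was 0.3005. Axin2, a scaffold of the destruction complex and a Wnt target, was at 51.6, 40.1 and 21.7 CPM in chow and 32.5, 39.7 and 37.8 CPM under berberine, within the chow range. Prox1, a transcription factor that colon tumours express, was at 7.14, 8.81 and 7.53 against 9.28, 6.804 and 6.48 CPM, overlapping too. It was below 1 FPKM in every chow and berberine library and passed the filter only through the high-fat diet libraries, at 44.5, 43.8 and 37.5 FPKM. High-fat diet libraries held 300.0, 376 and 471 CPM of Axin2 and 397, 387 and 348 CPM of Prox1, and 18 of the 19 list genes were called higher there against the same chow libraries. For Gsk3b the berberine libraries thus overlapped the high-fat diet libraries, while for Axin2 and Prox1 they overlapped the chow libraries.

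**Figure D2:**
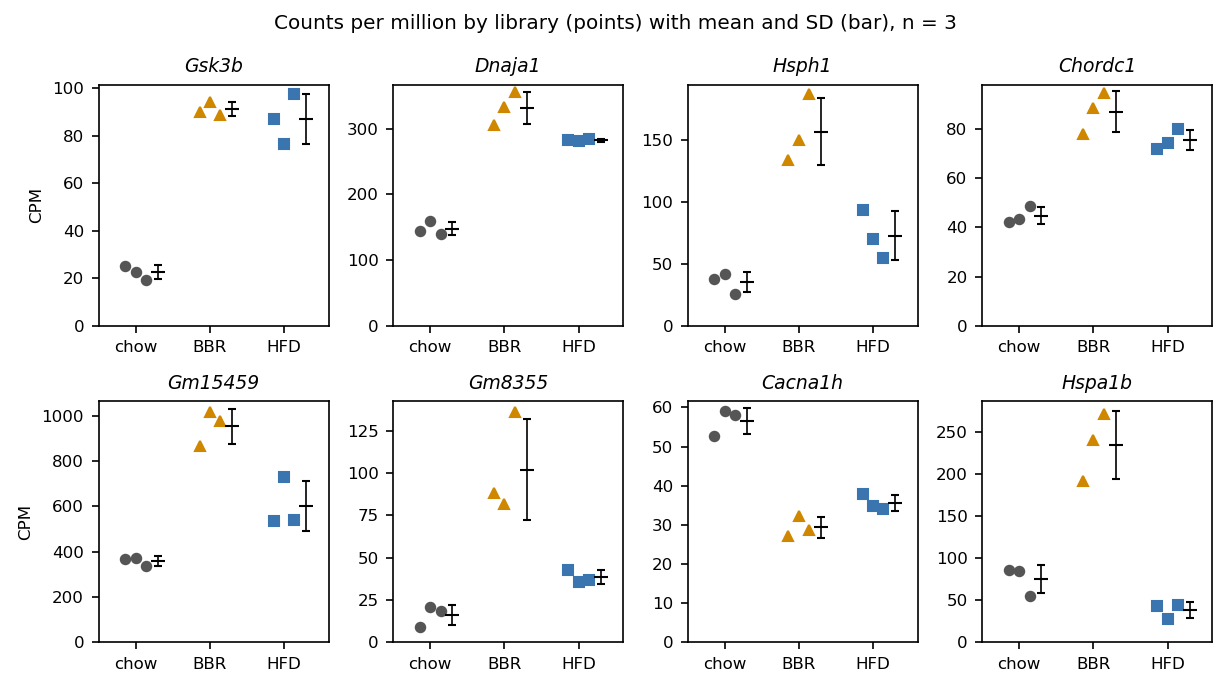
CPM by library for the 7 genes called in berberine against chow and for Hspa1b, with chow libraries as circles, berberine libraries (BBR) as triangles and high-fat diet libraries (HFD) as squares, replicates 1 to 3 from left to right, and the mean with its SD beside them (n = 3). Gsk3b was at 88.6 to 94.3 CPM in the berberine libraries and at 19.5 to 25.4 in chow, and Cacna1h was the one gene that was lower.

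Dnaja1 (ENSMUSG00000028410, chromosome 4, 40722150 to 40734964), a J-domain partner of HSP70, was at 145, 159 and 140.0 CPM in chow and at 306, 333 and 355 CPM in the berberine libraries. It rose 2.24-fold (log2 1.16 ± 0.11, edgeR adjusted p 0.0155). High-fat diet libraries were nearly uniform at 282, 280.4 and 285 CPM, between the other 2 groups. The call was kept without chow replicate 2 (adjusted p 0.0326) and without berberine replicate 1 (0.0445). It was lost without chow replicate 1 (0.0546), chow replicate 3 (0.0794), berberine replicate 2 (0.145) or berberine replicate 3 (0.0551), all by edgeR.

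Hsph1 (ENSMUSG00000029657, chromosome 5, 149614287 to 149636376), the HSP110 nucleotide exchange factor, showed the largest rise of the called coding genes. It was at 38.01, 41.8 and 26.1 CPM in chow and 134, 150.0 and 187 CPM under berberine, or 4.44-fold higher (log2 2.15 ± 0.25, edgeR adjusted p 0.0487). In the high-fat diet libraries it was at 93.6, 70.4 and 54.7 CPM, above every chow and below every berberine library. Chordc1 (ENSMUSG00000001774, chromosome 9, 18292125 to 18317442) encodes morgana, a co-chaperone of HSP90. It was at 42.3, 43.6 and 48.6 CPM in chow and 78.1, 88.4 and 94.6 CPM under berberine, a 1.94-fold rise (log2 0.96 ± 0.12, edgeR adjusted p 0.0487), and at 71.95, 74.4 and 79.8 CPM under high-fat diet. Both calls sat just inside the threshold. Leaving out any 1 of the 6 libraries ended them, with edgeR adjusted p from 0.0873 to 0.191 for Hsph1 and from 0.08802 to 0.224 for Chordc1, while the log2 fold changes in those fits stayed between 1.98 and 2.29 and between 0.89 and 1.03.

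The other two genes that rose were processed pseudogenes. Gm15459 (chromosome 5, 5781615 to 5783555) matched the Hspa8 transcript over 1941 bases at 99.742% identity, with 5 mismatches, and Gm8355 (chromosome 10, 14745362 to 14747302) matched it over 1941 bases at 98.712%, with 25 mismatches. How reads were shared between these copies and Hspa8 was not tested, so their own levels are uncertain. Gm15459 was at 369, 373 and 335 CPM in chow and 868, 1016 and 974 CPM under berberine (log2 1.41 ± 0.16, edgeR adjusted p 0.0487). Gm8355 was at 9.13, 20.6 and 18.6 against 88.2, 81.6 and 136 CPM (log2 2.66 ± 0.33, edgeR adjusted p 0.0487). The groups did not overlap for either copy. Without any 1 library both calls were lost, with edgeR adjusted p from 0.0845 to 0.1604 and from 0.0546 to 0.164. Hspa8 itself, which encodes the constitutive HSC70, was at 746, 808 and 1060.1 CPM in chow and 1944, 1293 and 1889 CPM under berberine, which do not overlap either (log2 0.97 ± 0.21, edgeR adjusted p 0.234, DESeq2 0.00123). A copy of Dnaja1, Gm15542, with 99.414% identity over 1194 bases, had a log2 fold change of 1.23 ± 0.16 and an edgeR adjusted p of 0.0618.

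Across the heat shock list, all 16 members passed the filter and 3 rose by edgeR, namely Dnaja1, Hsph1 and Chordc1. DESeq2 called 9 higher and none lower, and 13 had an unadjusted edgeR p under 0.05, all on the higher side. Of all genes tested, 1.22% were called higher by DESeq2 and 5.01% had such a p on the higher side. In 13 of 16 every berberine library lay above every chow library, beside 8.73% of all genes tested, and in none the reverse. The median log2 fold change was 0.69, from -0.46 to 2.15, beside -0.0022 over all genes. For high-fat diet against the same chow libraries it was 0.27, and there edgeR called 7 of the 16 higher and 2 lower. Summed over the list the level was 3147, 3251 and 3099 CPM in chow and 5386, 5089 and 6090 CPM under berberine. Under high-fat diet the sum was 5313, 5142 and 4795 CPM, also above every chow library.

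**Figure D3:**
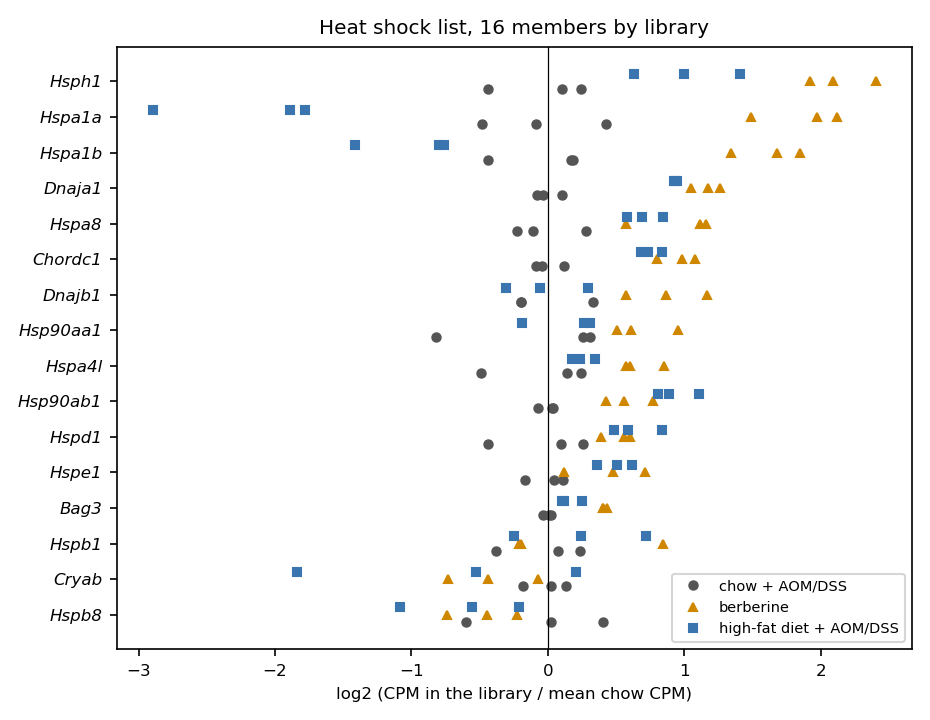
The 16 heat shock list genes by library, as the log2 ratio of the CPM in the library to the mean CPM of the 3 chow libraries, ordered by the berberine mean. Berberine triangles lie to the right of all chow circles for 13 genes, and the 3 small heat shock genes at the bottom, Hspb1, Cryab and Hspb8, overlap.

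The inducible HSP70 genes Hspa1a and Hspa1b, near-identical neighbours between which reads may be shared, differed most among the members that were not called. Hspa1b was at 85.5, 84.4 and 55.5 CPM in chow and at 191, 240.3 and 270.3 CPM under berberine, or 3.11-fold higher (log2 1.64 ± 0.24, edgeR adjusted p 0.0793, DESeq2 2.72e-07). Hspa1a was at 47.96, 33.7 and 25.6 against 100.3, 155 and 139.9 CPM (log2 1.88 ± 0.34, edgeR adjusted p 0.152). In the high-fat diet libraries both lay below every chow library, with 43.2, 28.2 and 44.3 CPM of Hspa1b and 9.62, 4.81 and 10.4 CPM of Hspa1a. Their log2 fold changes against chow were there -0.96 ± 0.24 (edgeR adjusted p 0.0154) and -2.11 ± 0.34 (edgeR adjusted p 0.00271). These genes thus lay highest under berberine and lowest under high-fat diet, an order unlike that of Dnaja1 and Hsph1, in which the high-fat diet libraries were in the middle.

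Dnajb1, a J-domain gene strongly induced by HSF1, was at 56.8, 81.9 and 56.9 CPM in chow and 119, 146 and 96.9 CPM under berberine (edgeR adjusted p 0.297). Bag3, an HSP70 co-chaperone of selective autophagy, was at 71.3, 69.1 and 72.00 against 93.9, 93.7 and 95.8 CPM, a small difference with very tight groups (log2 0.42 ± 0.09, edgeR adjusted p 0.239, DESeq2 0.000683). Of the cytosolic HSP90 genes, Hsp90ab1, the constitutive form, was at 1154, 1148 and 1066 against 1511, 1651 and 1918 CPM. Hsp90aa1, the inducible form, was at 226, 235 and 107 against 269, 366 and 289 CPM, with chow replicate 3 far below the other chow libraries. Under high-fat diet Hsp90ab1 was at 2420, 2081 and 1968 CPM, above every berberine library, and Hsp90aa1 at 228, 235 and 166 CPM, below every one. The mitochondrial chaperonin pair stood nearer to chow. Hspd1 was at 237, 266 and 164 against 327, 291 and 337 CPM, and its partner Hspe1 at 74.5, 86.2 and 90.6 against 117, 90.9 and 137 CPM, the berberine libraries above chow in each but narrowly so for Hspe1. Hspa4l, a second HSP110 family gene, was at 46.05, 49.6 and 29.8 against 63.4, 62.2 and 75.4 CPM.

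The small heat shock proteins, which bind unfolded chains without ATP, did not separate. Hspb1 was at 102, 91.1 and 66.4 CPM in chow and 74.5, 75.4 and 155 CPM under berberine, where replicate 3 alone was high. Its log2 fold change of 0.24 was -0.21 without berberine replicate 3. Hspb8 was at 58.4, 37.9 and 75.9 against 49.1, 42.04 and 34.4 CPM and Cryab at 16.97, 15.7 and 13.6 against 9.28, 11.4 and 14.7 CPM, with the berberine means below chow and the ranges overlapping. Both are also abundant in muscle, whose markers are given below.

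Co-chaperones of HSP90 and HSP70 were listed after values had been seen. None of 20 was called by edgeR, 6 higher and 2 lower had an unadjusted p under 0.05, and DESeq2 called 5 higher. In 7 of the 20 every berberine library was above chow and in 3 below, beside 8.73% and 9.37% of all genes. Stip1, the adaptor that joins HSP70 to HSP90, was at 94.7, 80.3 and 83.1 CPM in chow and 161, 143 and 167 CPM under berberine (edgeR adjusted p 0.0793). Ahsa1, the activator of the HSP90 ATPase, was at 79.3, 71.2 and 72.5 against 117, 112 and 115 CPM (edgeR adjusted p 0.0794). Cacybp was at 52.2, 46.7 and 50.3 against 91.4, 79.9 and 79.9 CPM, the immunophilin gene Fkbp4 at 253, 246 and 217 against 375, 336 and 409.9 CPM, and St13, which encodes the HSP70-interacting protein HIP, at 113, 95.02 and 99.3 against 139.6, 144 and 148 CPM. Each of these 5 was clear of the chow libraries, and each was about as high or higher in the high-fat diet libraries, with Ahsa1 at 128, 118 and 119.9 CPM and Stip1 at 188, 168 and 151 CPM. The 8 subunits of the cytosolic chaperonin TRiC had a median of 0.16, with 4 above chow in every library (8.73% of all genes), none called by edgeR or DESeq2 and 1 with an unadjusted p under 0.05. Cirbp, an RNA-binding protein that is induced by cold and lowered by heat, was at 97.8, 81.7 and 149 CPM in chow and 51.5, 49.8 and 36.5 CPM under berberine (log2 -1.26 ± 0.27, edgeR adjusted p 0.234, DESeq2 0.00231). Here every berberine library was below chow.

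Chaperones of the endoplasmic reticulum belong to a separate programme, the unfolded protein response. Of 19 tested genes on that list none was called by edgeR, 8 had an unadjusted p under 0.05 on the higher side, and DESeq2 called 3 higher. Every berberine library was above chow in 9 of 19 and below in none, beside 8.73% and 9.37% of all genes, and the median was 0.49, against 0.24 for high-fat diet on the same chow libraries. In that high-fat diet comparison edgeR called 6 of the 19 higher and none lower. Hsp90b1, the HSP90 of the endoplasmic reticulum, was at 564, 594 and 479 CPM in chow and 867, 830.2 and 1107 CPM under berberine (log2 0.78 ± 0.16, edgeR adjusted p 0.217, DESeq2 0.00151). Creld2, a secreted stress protein of that compartment and not on the list, was at 38.4, 44.1 and 40.5 against 83.7, 77.4 and 94.5 CPM (edgeR adjusted p 0.0793). Plasma cells, which secrete much protein, express many of these genes, and their markers also lay on the higher side. The summed CPM of the 13 plasma cell genes was 2769.8, 5255 and 8441 in chow and 8843, 11557 and 10119 under berberine. Their part in the chaperone values was not tested.

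Other stress lists gave less. The oxidative stress genes had a median of -0.07 over 15 tested members, with none called by either tool and 1 with an unadjusted p under 0.05, and the p53 targets had 0.04 over 13, with none called by either tool and 2 with an unadjusted p under 0.05. Immediate early genes, which respond within minutes to handling and signals, had a median of 0.02 over 18, none called by edgeR, 1 by DESeq2 and 3 with an unadjusted p under 0.05. Dusp1, a phosphatase that ends MAP kinase signalling, was the member with the smallest p, at 70.4, 50.1 and 67.8 CPM in chow and 149, 110.3 and 93.7 CPM under berberine (edgeR adjusted p 0.255). As measures of the libraries themselves, the mitochondrial share of counts was 5.87% to 8.65% in chow and 5.94% to 7.29% under berberine, and the totals ran from 51961764 to 69007117 counts over the 9 libraries. Neither separated the groups.

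Cacna1h (ENSMUSG00000024112, chromosome 17, 25374285 to 25433783) encodes a pore subunit of the T-type calcium channel, which opens at low voltage in smooth muscle, neurons and pacemaker cells. It was at 52.6, 59.1 and 57.9 CPM in chow and 27.1, 32.2 and 28.7 CPM under berberine, 1.93-fold lower (log2 -0.95 ± 0.12, edgeR adjusted p 0.0487). High-fat diet libraries were at 37.98, 34.7 and 34.2 CPM, between the groups and nearer to berberine. The gene overlaps the end of Tpsg1. The call ended without any 1 library (edgeR adjusted p 0.1299 to 0.171), and of 19 alternatives DESeq2 alone kept it. Of 16 voltage-gated calcium channel genes, a list written after values had been seen, 5 were tested. In 3 of these 5, Cacna1h itself among them, every berberine library was below chow, beside 9.37% of all genes.

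Smooth muscle markers lay on the lower side together with Cacna1h. In 11 of 12 every berberine library was below every chow library, beside 9.37% of all genes, and the median was -1.15. None was called by edgeR, 7 had an unadjusted p under 0.05 on the lower side (5.87% of all genes), and DESeq2 called 1 lower (1.4%). Summed over the list the level was 14469, 10279.8 and 13040.0 CPM in chow, 6085, 5561 and 5094 CPM under berberine and 1715, 2630.3 and 8137 CPM under high-fat diet. Actg2, the actin of enteric smooth muscle, was at 1489, 1484 and 1192 CPM in chow and 398, 529 and 433 CPM under berberine (log2 -1.61 ± 0.49, edgeR adjusted p 0.343, DESeq2 0.0272). Myh11, the smooth muscle myosin, was at 2971, 1735 and 2468 against 1125, 974 and 671 CPM and Acta2 at 2630.5, 1623 and 2333 against 1111, 1008 and 822 CPM. The muscle markers of every berberine library thus lay below those of every chow library by these 3 genes. In bulk tissue fewer cells of a type and less RNA per cell cannot be told apart, and what part muscle content had in Cacna1h was not tested. Of 9 tested genes of enteric neurons and glia, 3 were below chow in every berberine library (9.37% of all genes), none was called by edgeR, and 1 had an unadjusted p under 0.05 and a DESeq2 call, the receptor tyrosine kinase gene Ret at 24.1, 19.97 and 23.5 against 13.6, 16.2 and 13.7 CPM. Fibroblast and matrix genes had a median of -0.10 over 15, with none called by either tool and 1 with an unadjusted p under 0.05.

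The rule for naming genes also brought up genes with the smallest p that were not called. Trim65, a ubiquitin ligase gene, was at 7.86, 5.56 and 7.75 CPM in chow, 32.1, 33.7 and 24.2 CPM under berberine and 9.01, 14.5 and 8.26 CPM under high-fat diet, so that the berberine libraries were alone in being high (log2 2.09 ± 0.27, edgeR adjusted p 0.0618). On the lower side Zfp503, a zinc finger repressor, was at 28.1, 25.9 and 23.8 against 13.99, 15.7 and 14.1 CPM, while the high-fat diet libraries were at 65.7, 61.4 and 65.2 CPM. Stac, an adaptor of calcium channels, was at 6.45, 5.32 and 6.52 against 2.48, 2.501 and 1.81 CPM, with 27.7, 22.002 and 27.05 CPM under high-fat diet. Ptprs, a receptor tyrosine phosphatase, was at 66.1, 67.1 and 66.01 against 35.03, 40.7 and 32.4 CPM and at 116, 88.3 and 108 CPM under high-fat diet. For Zfp503, Stac and Ptprs the berberine and high-fat diet libraries lay on opposite sides of chow. Zc3h6, a zinc finger gene, was at 17.1, 14.99 and 18.8 against 4.79, 5.52 and 4.09 CPM, and at 4.96, 6.42 and 9.401 CPM under high-fat diet. The edgeR adjusted p of these 4 lower genes ran from 0.0793 to 0.0925.

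Tissue markers were checked before the remaining lists. Absorptive colonocyte genes summed to 11618 to 21173 CPM in chow and 9743 to 14314 CPM under berberine, and goblet cell genes to 11453 to 33916 and 15874 to 28890.1 CPM. The small intestinal lactase gene Lct was at most 0.723 CPM and the pancreatic gene Cpa1 at most 0.0659 CPM in these 6 libraries. Other members of their lists were higher. Fabp2, on the small intestine list, was at 39.5, 489.6 and 22.97 CPM in chow and 11.02, 21.3 and 42.96 CPM under berberine. Cela1, on the pancreatic list, was at 159.1, 58.7 and 160.6 CPM in chow and 147.4, 142.5 and 190.3 CPM under berberine. Both overlapped between the groups. Single libraries stood apart for cells around the mucosa or for position. Striated muscle genes summed to 62.1, 40.1 and 1713 CPM in chow, where replicate 3 was high, and to 17.4 to 24.5 CPM under berberine. Myh4, the fast myosin, was at 0.343, 0.321 and 669.9 against 0.233, 0.447 and 0.198 CPM. Squamous epithelial genes summed to 362, 66.5 and 21.8 CPM in chow, where replicate 1 was high, and to 19.2 to 40.6 CPM under berberine, and the basal keratin gene Krt5 was at 94.4, 0.207 and 1.92 against 0.794, 0.283 and 0.0659 CPM. Adipocyte genes summed to 239 to 381 CPM in chow and to 1148, 971 and 188 CPM under berberine, high in replicates 1 and 2. Adiponectin, Adipoq, was at 2.91, 11.1 and 1.76 against 60.9, 49.1 and 0.313 CPM, and its log2 fold change of 2.80 was -4.06 with berberine replicates 1 and 2 left out. The large fold changes of these lists therefore rest on 1 or 2 libraries each.

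**Figure D4:**
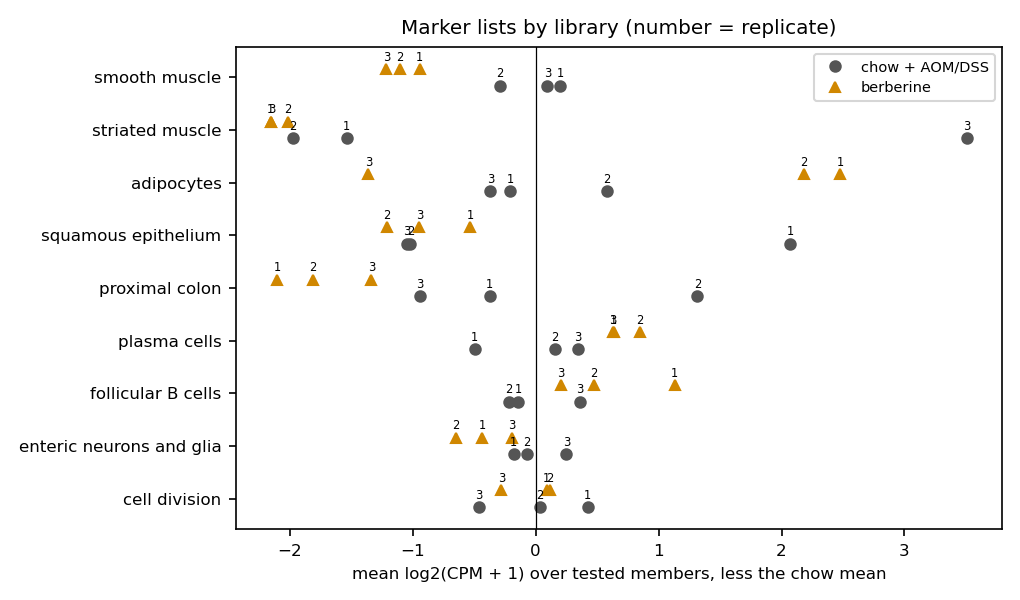
Mean log2(CPM + 1) over the tested members of a marker list, less the mean of the 3 chow libraries, for each chow (circle) and berberine (triangle) library, with the replicate number above the point. Chow replicate 3 stands at 3.51 for striated muscle, chow replicate 1 at 2.07 for squamous epithelium and berberine replicates 1 and 2 at 2.48 and 2.18 for adipocytes. The 2 groups do not overlap for smooth muscle, proximal colon and plasma cells. They are also apart, though narrowly, for striated muscle and for enteric neurons and glia.

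Markers of position along the colon were uneven as well. The 9 proximal colon markers summed to 1975, 8759 and 990.0 CPM in chow and 369, 463 and 682 CPM under berberine. Chow replicate 2 was the highest, and every berberine library was below chow. Of 7 tested markers 5 were below chow in every berberine library (9.37% of all genes) and none above. No marker was called by edgeR, 6 had an unadjusted p under 0.05 on the lower side, and DESeq2 called 2 lower. Cyp2c55, a cytochrome P450 of the proximal colon, was at 819.9, 3419 and 344 against 37.6, 61.2 and 66.5 CPM (log2 -4.79 ± 0.84, edgeR adjusted p 0.142, DESeq2 4.68e-10). Car1, the carbonic anhydrase of proximal colonocytes, was at 692, 4557 and 292 against 110.3, 54.9 and 239 CPM. Even the lowest chow library was above every berberine library for both. Distal colon markers did not separate, at 909.9, 217 and 1154 CPM in chow, lowest in replicate 2, and 857, 942 and 694 CPM under berberine, none of 7 called by either tool or with an unadjusted p under 0.05. What part the stretch of colon sampled had in these values was not tested.

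Enzymes of drug metabolism are known to vary along the colon. Of 37 tested phase I and II genes none was called by edgeR. An unadjusted p under 0.05 was reached by 13 lower and 1 higher (5.87% and 5.01% of all genes), and DESeq2 called 6 lower (1.4%). In 9 every berberine library was below chow and in none above, beside 9.37% and 8.73% of all genes, and the median was -0.73, against -2.96 for high-fat diet on the same chow libraries. Cyp2c55 was counted among them. Abcb1a, the P-glycoprotein pump for which berberine is a substrate, was at 545, 1083 and 361 CPM in chow and 218, 246 and 270.5 CPM under berberine, clear of chow (log2 -1.44 ± 0.42, edgeR adjusted p 0.338, DESeq2 0.0302). It was at 31.8, 29.99 and 14.1 CPM under high-fat diet. Slc10a2, the ileal bile acid transporter, was at 48.01, 103 and 45.6 against 20.4, 29.9 and 20.2 CPM, highest in chow replicate 2. Its list of bile acid and nuclear receptor genes had a median of -0.14 over 17 members, none called by edgeR, 1 by DESeq2 and 2 with an unadjusted p under 0.05.

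Of 28 tested genes of fatty acid oxidation and ketogenesis none was called by edgeR, 6 lower and 2 higher had an unadjusted p under 0.05, DESeq2 called 2 lower and 1 higher, and 5 were below chow in every berberine library, beside 9.37% of all genes. The DESeq2 share over all genes was 1.4% lower and 1.22% higher. The median was -0.31. Acaa2, the thiolase that ends mitochondrial beta-oxidation, was at 105, 161 and 119 CPM in chow and 63.2, 70.3 and 79.7 CPM under berberine (log2 -0.85 ± 0.18, edgeR adjusted p 0.217, DESeq2 0.00342), and at 33.3, 35.3 and 41.03 CPM under high-fat diet. Berberine is known as an inhibitor of respiratory complex I and an activator of the energy sensor AMPK. The 25 nuclear genes of oxidative phosphorylation had a median of 0.01, from -0.22 to 0.15, and none was called by either tool, had an unadjusted p under 0.05 or stood clear of chow. The 13 genes of the mitochondrial genome had a median of -0.21 with none called by either tool and none with an unadjusted p under 0.05. Among 13 tested AMPK subunits and upstream kinases the median was -0.31. Every berberine library was below chow in 3 and above in none, beside 9.37% and 8.73% of all genes. None was called by edgeR, and 1 was called lower by DESeq2 and had an unadjusted p under 0.05. That gene was Prkag2, a regulatory subunit of AMPK, at 43.8, 44.6 and 47.96 against 30.1, 32.4 and 26.03 CPM (edgeR adjusted p 0.311). Cholesterol synthesis genes had a median of -0.07 over 22 members and fatty acid synthesis genes 0.16 over 19. In the latter Elovl7, an elongase of long fatty acids, was at 71.7, 69.6 and 59.7 against 91.3, 102 and 104 CPM, the berberine libraries all higher (edgeR adjusted p 0.204). For glycolysis and hypoxia the median was 0.12 over 20, with 4 members above chow in every library (8.73% of all genes), of which Egln3, an oxygen-sensing hydroxylase gene, had the smallest p at 84.1, 56.6 and 125 against 169, 272 and 169 CPM (edgeR adjusted p 0.297).

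In the epithelium the cell division genes had a median of -0.11 over 25, against 0.63 for high-fat diet, and none was called by either tool, had an unadjusted p under 0.05 or stood clear of chow. Crypt stem cell genes had a median of -0.24 over 12, with none called by either tool and 1 with an unadjusted p under 0.05. Absorptive colonocyte genes had a median of -0.30 over 26, none called by edgeR, 1 by DESeq2 and 3 with an unadjusted p under 0.05, and goblet cell genes 0.15 over 17, none called by either tool and 1 with an unadjusted p under 0.05. Under high-fat diet these last lists had medians of -1.81 and -1.90 on the same chow libraries. Aqp8, the water channel of surface colonocytes, was at 573, 773 and 721 CPM in chow, 243, 497 and 520.1 CPM under berberine and 20.1, 13.8 and 6.71 CPM under high-fat diet. The berberine libraries were below chow for it, and far above the high-fat diet libraries. Of the junction genes, Cldn4, a tight junction claudin, had the smallest p, at 79.3, 160.1 and 96.97 against 50.2, 61.1 and 67.6 CPM (edgeR adjusted p 0.311, DESeq2 0.0371), and at 588, 527 and 479 CPM under high-fat diet. The junction list had a median of 0.01 over 17, with none called by edgeR, 1 by DESeq2 and 2 with an unadjusted p under 0.05.

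**Figure D5:**
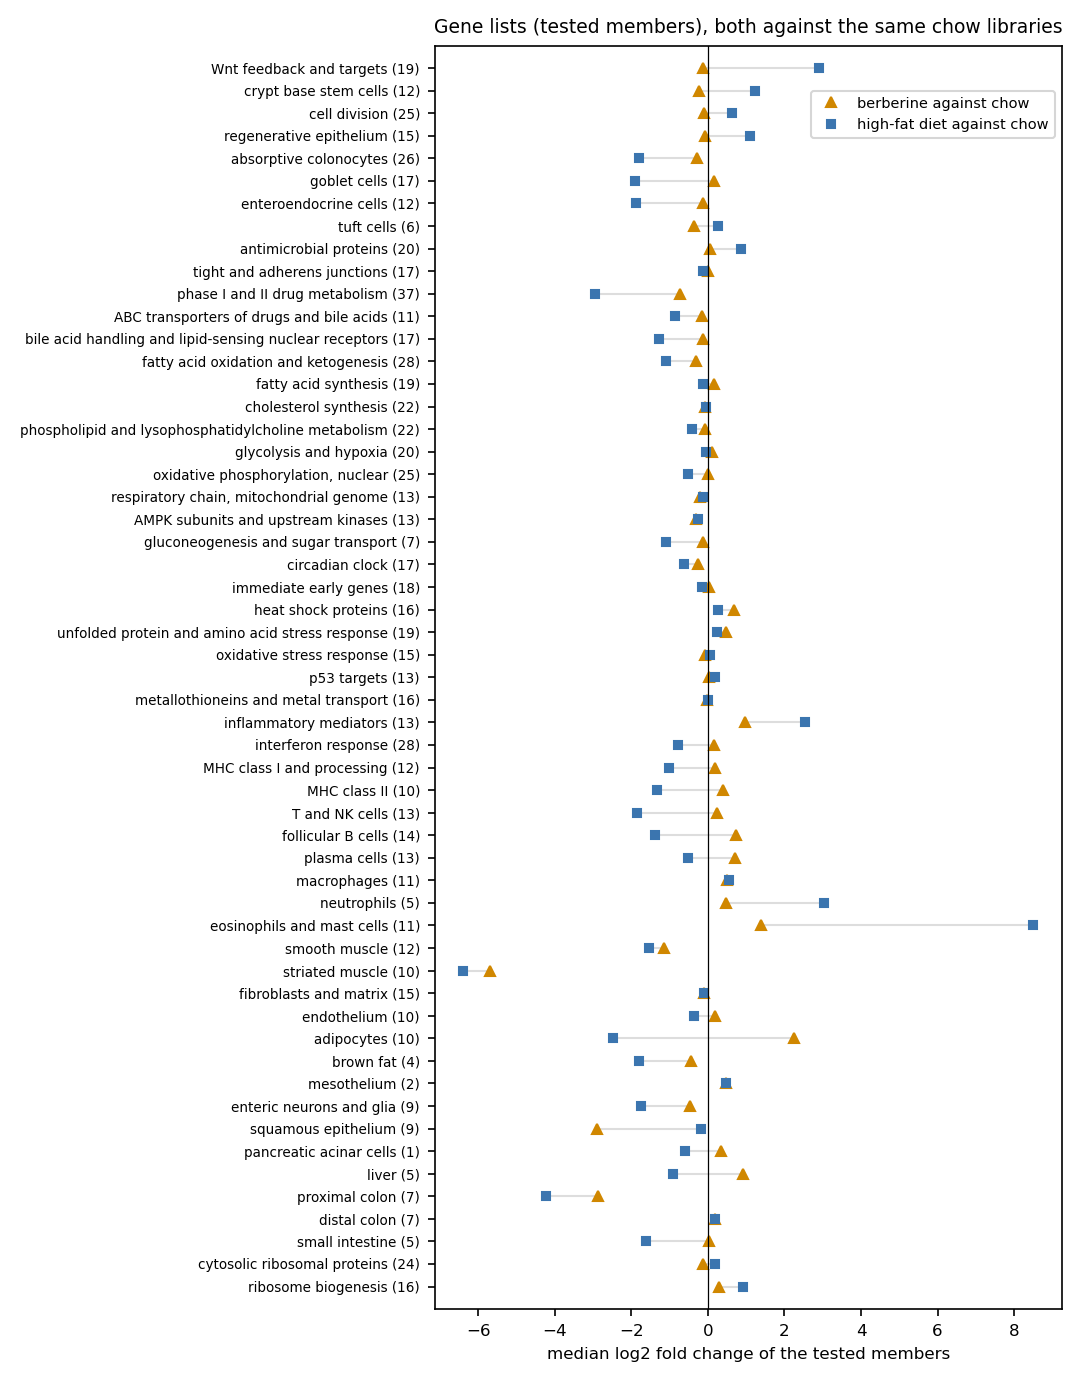
Median log2 fold change of the tested members of each of 55 gene lists (number of tested members in brackets), berberine against chow as triangles and high-fat diet against the same chow libraries as squares, joined by a line. For berberine 43 of the 55 medians lie within 0.5 of 0. Those of striated muscle, proximal colon, squamous epithelium and adipocytes, which lie farthest out, are lists in which single libraries stand apart. In the proximal colon list, 5 of the 7 tested genes were also below chow in every berberine library.

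Follicular B cell and plasma cell genes lay on the higher side. Of 14 tested follicular B cell genes, which in the colon mark lymphoid follicles, 5 were above chow in every berberine library and none below, beside 8.73% and 9.37% of all genes, 4 had an unadjusted p under 0.05, and none was called by edgeR or DESeq2. The median was 0.73. Ms4a1, the CD20 gene, was at 41.7, 50.1 and 56.9 CPM in chow and 114, 81.1 and 63.1 CPM under berberine, highest in replicate 1. Of 13 plasma cell genes 6 were above chow in every library, beside the same 8.73%, 5 had an unadjusted p under 0.05, DESeq2 called 1 and edgeR none, with a median of 0.71. Igha, the constant segment of immunoglobulin A, was at 1284, 2577 and 4116 against 5124, 6359 and 5210.3 CPM, and Derl3, a degradation factor of secretory cells, at 2.76, 3.19 and 5.904 against 8.99, 11.7 and 10.3 CPM. T and NK cell genes had a median of 0.23 over 13, with none called by either tool and none with an unadjusted p under 0.05. Macrophage genes had a median of 0.49 over 11, with 4 above chow in every library (8.73% of all genes), 5 with an unadjusted p under 0.05 on the higher side, 1 called higher by DESeq2 and none by edgeR. Cd14, the lipopolysaccharide co-receptor, was their member with the smallest p, at 49.9, 39.7 and 38.5 against 85.1, 77.1 and 70.3 CPM (edgeR adjusted p 0.211, DESeq2 0.00363). Eosinophil and mast cell genes had a median of 1.39 over 11, with 5 above chow in every library (8.73% of all genes), 3 with an unadjusted p under 0.05 on the higher side, 1 called higher by DESeq2 and none by edgeR. Siglecf, a surface lectin of eosinophils, was at 1.68, 3.41 and 3.29 against 7.56, 10.1 and 4.37 CPM (log2 1.39 ± 0.49, edgeR adjusted p 0.389). Under high-fat diet Siglecf was at 2.88, 1.61 and 0.982 CPM. Most of its list went the other way there, with a median of 8.50 against chow, 9 called higher by edgeR and 1 lower. Summed over the list the level was 84.6, 141 and 76.2 CPM in chow and 86.7, 106 and 94.6 CPM under berberine, overlapping, against 5035, 1151 and 349 CPM under high-fat diet. The filter took the mean over 9 libraries, so members could pass it through the high-fat diet group alone, and both medians carry that selection. The inflammatory mediators were low in the chow and berberine libraries, 13 of 20 passing the same filter over 9 libraries. Their median was 0.96, against 2.52 for high-fat diet on the same chow libraries. None was called by either tool, 3 were above chow in every berberine library (8.73% of all genes) and none below. An unadjusted p under 0.05 (edgeR) was reached by 2 higher and 1 lower. Il1b was at 3.23, 3.24 and 2.64 CPM in chow and 13.6, 6.61 and 6.29 CPM under berberine, with replicate 1 apart (edgeR adjusted p 0.401). Interferon response genes summed to 1252, 1154 and 1489 CPM in chow and 2494, 978 and 1306 CPM under berberine, again with replicate 1 apart, and none of 28 was called by either tool or had an unadjusted p under 0.05.

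Of the 55 lists, the heat shock list was the one that held an edgeR call, and 29 held a call by neither tool. The lists cover 905 genes, of which 775 were tested. Some of the genes named by the rule, from lists described above and from others, overlapped chow. Areg, a growth factor of the regenerating epithelium, was at 30.6, 23.5 and 59.2 CPM in chow and 28.9, 20.4 and 22.4 CPM under berberine, and Hoxa13, which patterns the hindgut, at 71.02, 44.4 and 76.7 against 46.4, 49.7 and 53.7 CPM. Ndufb8, a complex I subunit, was at 150.0, 167 and 176 against 118, 134 and 170.1 CPM, and Gpx2, the gastrointestinal glutathione peroxidase, at 117, 206 and 128 against 271, 194 and 250.1 CPM. Among the fat and lining markers Lipe, a lipase of adipocytes, was at 18.8, 24.8 and 16.1 against 62.3, 59.8 and 17.3 CPM, and the lipid droplet gene Plin1 at 2.21, 5.88 and 0.428 against 41.99, 41.4 and 0.297 CPM, with berberine replicates 1 and 2 high. The mesothelial gene Msln was at 5.01, 10.1 and 15.7 against 19.7, 28.8 and 9.74 CPM. All 7 of these overlapped between the groups. By contrast Bop1, a ribosome assembly factor, was at 38.04, 41.1 and 40.4 against 65.97, 51.2 and 52.2 CPM and Lum, a matrix proteoglycan, at 47.8, 30.7 and 27.3 against 15.4, 18.3 and 18.2 CPM, clear of chow but with edgeR adjusted p of 0.342 and 0.343. Alb, the albumin gene of liver, was at 1.29, 1.26 and 0.841 against 10.9, 1.85 and 11.96 CPM. Members that were low in every group were not tested, so counts and medians describe the tested members.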

How the data were processed

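Stranded, poly(A)-selected RNA libraries with molecular identifiers were sequenced from colonic tissue, per the labels' protocols. The deposited table gives an estimated count and an FPKM value per gene and library, per the file headers. Build GRCm38 and the tools StringTie 1.3.4d, HISAT2 2.0.4, cutadapt 1.9, edgeR, DESeq2 and UMI-tools are named per the submitters' processing notes. The step each served is not given in the sources used here. The deposited estimated counts are whole numbers, about 4 to a sequenced fragment, and the deposited FPKM values are 0.0001 where the count is 0.

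The estimated counts of all 9 libraries were fitted with edgeR 4.0.16 (TMM scaling, quasi-likelihood test, R 4.3.3), and the contrast berberine minus chow was tested over 14506 genes with a mean FPKM of at least 1. A gene was called at a Benjamini-Hochberg adjusted p under 0.05, and rose, fell and changed are used of called genes only. CPM is on TMM-scaled library sizes. Values after ± are approximate standard errors of log2 fold changes, the size of the fold change divided by the square root of the test's F statistic. DESeq2 1.42.0 and limma 3.58.1, other scalings and filters, and libraries left out were alternatives. The scripts were tested on simulated data. Replicates differed by more than counting noise.

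Members, gene lists and tests were chosen with earlier results of these data known, and 6 lists after values had been seen. The naming rule took the 12 highest and 12 lowest called coding genes with groups that do not overlap, filled to 5 a direction by the smallest p, up to 4 called members of each list or else the member with the smallest p, defining markers, and genes shown with a promoter. Pseudogenes, co-chaperones, Cirbp, Creld2, Hspa8 and the genes of the closing section were chosen after their values were seen, and the other heat shock genes are given as members of their list.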

Additional observations from a re-analysis of the deposited data

How the results depend on the processing

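The count of 7 called genes (6 higher, 1 lower) depended on the processing. It was 2 with RLE size factors, 2 with counts divided by 4, 2 with the 6 chow and berberine libraries alone, 380 with DESeq2 (177 higher, 203 lower), and 23 at an adjusted p under 0.1, a setting added after seeing the data. It was 5 with library totals alone, 5 with no FPKM filter, 8 at a mean of at least 5 FPKM, 9 and 8 with limma on log2(FPKM + 1) and log2(FPKM + 0.1), and 5 with a change of at least 2-fold. Leaving out each replicate in turn gave 1 to 4. Leaving out chow replicates 2 and 3 gave 1, chow replicates 1 and 3 gave 71 (23 higher, 48 lower), and berberine replicates 1 and 2 gave 3 (all lower), fits in which the spread of the 1 library left in a group is taken from the others. Leaving out chow replicate 3 and berberine replicate 3, chosen after seeing the data, gave 3. The alternatives that kept the call were 18 of 20 for Gsk3b, 10 of 20 for Dnaja1, 6 of 20 each for Hsph1, Gm15459 and Gm8355, 4 of 20 for Chordc1 and 1 of 19 for Cacna1h. With the replicate number as a block 2 genes were called (1 higher, 1 lower), 1 of them shared with the 7 genes, Gsk3b. The labels do not say that the numbers pair the libraries. Deviations of same-numbered chow and berberine libraries correlated at 0.117, 0.0123 and -0.0711, and those of differently numbered ones at -0.193 to 0.169. With 3 libraries a group these values cannot tell whether libraries were paired. The heat shock count of 13 was 13 on FPKM. Leaving out libraries cannot lower such a count and is no check of it. Of 2097 fold changes of 106 named genes, 1929 kept direction and side of the threshold, 88 lost a call, 56 gained one and 24 turned sign. With chow replicates 1 and 3 left out, log2 fold changes turned to 0.85 for Krt5, 0.028 for Areg, 0.17 for Hoxa13 and 0.14 for Hspb8. With berberine replicates 1 and 2 left out they turned to -0.20 for Lipe, -3.25 for Plin1, -0.078 for Msln, -4.06 for Adipoq and 0.050 for Ndufb8. With chow replicates 2 and 3 left out they turned to 0.28 for Dbp and 0.078 for Prox1, and with chow replicate 3 and berberine replicate 3 left out to 0.039 for Myh4, 0.072 for Dbp, 0.0091 for Prox1 and -0.37 for Hspb1. Leaving out each replicate in turn gave -0.21 to 0.42 for Hspb1, -0.24 to 0.033 for Prox1 and -0.32 to 0.24 for Axin2, and limma gave 0.042 and 0.060 for Axin2 with pseudocounts of 1 and 0.1. The causes were not tested. With a median standard error of 0.23 on the log2 scale, small differences were not detectable here.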

Other observations

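The genes and groups in this section were chosen after their values were seen, apart from the list members Slc11a2, Saa1, Pla2g12a and Dbp. Immunoglobulin segments, which plasma cells and B cells transcribe, lay on the higher side in the berberine libraries. Of 171 tested segments 55 were above chow in every berberine library and none below, beside 8.73% and 9.37% of all genes tested, and the median log2 fold change was 1.16. None was called by edgeR, 51 higher and 1 lower had an unadjusted p under 0.05, and DESeq2 called 22 higher and 1 lower. Over all genes the unadjusted shares were 5.01% higher and 5.87% lower, and the DESeq2 shares 1.22% and 1.4%. For high-fat diet against the same chow libraries the median was -0.49. Among them 7 of 9 lambda light chain, 23 of 64 heavy chain variable and 22 of 82 kappa variable segments were clear of chow, with medians of 1.41, 1.47 and 0.94. The difference between these families was not tested. Iglv1 was at 16.3, 56.2 and 47.5 CPM in chow and 588, 464 and 243 CPM under berberine (log2 3.43 ± 0.57, edgeR adjusted p 0.127, DESeq2 1.22e-08). Iglc1 was at 23.4, 54.1 and 77.2 against 519.7, 403 and 286 CPM, Iglv2 at 7.17, 11.99 and 12.1 against 91.3, 167 and 74.4 CPM and Iglc2 at 37.7, 38.6 and 72.7 against 149.9, 227 and 182 CPM. Segments of a family are alike in sequence, so reads may be shared among them.

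Of 7 linker histone genes, whose products bind DNA between nucleosomes, 3 were tested. None was called by edgeR, and 2 were below chow in every berberine library, beside 9.37% of all genes, with a DESeq2 call. H1f0, the replacement form of resting cells, was at 544, 400.1 and 354 CPM in chow and 166, 231 and 205 CPM under berberine (log2 -1.11 ± 0.20, edgeR adjusted p 0.142, DESeq2 8.56e-05). H1f2 was at 361, 281 and 275 against 69.8, 133 and 142 CPM (edgeR adjusted p 0.179, DESeq2 0.000189). Neither overlapped between the groups. Messages of replication histones lack a poly(A) tail, so their levels in poly(A)-selected libraries are hard to read.

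Several single genes were also clear of chow without a call by edgeR. P4ha1, a collagen prolyl hydroxylase gene, was at 33.4, 32.7 and 33.4 CPM in chow, 61.1, 86.4 and 76.1 CPM under berberine and 32.5, 23.3 and 25.1 CPM under high-fat diet (edgeR adjusted p 0.0793). Slc5a3, the myo-inositol transporter that cells raise under osmotic stress, was at 56.7, 48.05 and 62.6 against 103, 115 and 157 CPM, and at 22.8, 26.8 and 27.5 CPM under high-fat diet (edgeR adjusted p 0.0941 for berberine). Both were highest in the berberine group. Slc11a2, the iron importer DMT1, was at 45.1, 40.3 and 36.7 against 67.3, 154 and 120.1 CPM (edgeR adjusted p 0.162). Saa1, an acute phase protein also made by colonocytes, was at 778, 448 and 1088 against 1515, 1893 and 2664 CPM, and at 451, 436 and 261 CPM under high-fat diet. Sprr2a3, a small proline-rich protein induced by microbes, was at 604, 671 and 708 against 1122, 1202 and 1211 CPM, with 1248, 1641 and 1556 CPM under high-fat diet. Pla2g12a, a secreted phospholipase, was at 13.7, 17.6 and 17.3 against 10.1, 8.81 and 10.7 CPM, whereas the high-fat diet libraries were at 68.1, 46.9 and 55.6 CPM. The groups overlapped for Dbp, a clock output gene whose level swings through the day. It was at 9.78, 14.03 and 125 against 9.49, 15.6 and 10.5 CPM, with chow replicate 3 apart.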
